A study of Homo sapiens with 10 samples.

Results

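The set described here held 8 genes of MAPK feedback: the dual-specificity phosphatase genes DUSP4, DUSP5 and DUSP6, the Sprouty genes SPRY1, SPRY2 and SPRY4, and the Sprouty-related genes SPRED1 and SPRED2. Every region that the deposited annotation assigns to 1 of these symbols was taken, with no choice of regions by value. The 8 genes themselves were chosen with earlier results of these data known. This gave 72 regions out of 67387 annotated regions, and 8 of 15633 symbols. Of the 72, 23 lay within 1 kb of a transcription start site (TSS) and are called promoter regions, 9 lay at 1 to 3 kb and are called flanks, and 40 were distal. DUSP5 and SPRED2 had 20 regions each, DUSP4 had 10, SPRY1 had 7, DUSP6 had 6, SPRY2 had 4, SPRED1 had 3, and SPRY4 had 2, both at its promoter and none distal.

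H3K27ac, acetylation of histone H3 lysine 27 at active promoters and enhancers, was profiled by ChIP-seq in H1975, a human lung adenocarcinoma line with mutant EGFR. The 3 groups had 3 libraries each, which the labels call biological replicates, and all came from this single line. The DMSO group spent 21 days in medium free of drug and 3 days in DMSO. The osimertinib drug-tolerant persister group (osimertinib DTP) was held for 24 days in osimertinib, an EGFR inhibitor, at 500 nM. In the third group (osimertinib DTP + AZD5153), 21 days of osimertinib at 500 nM came before 3 days of the bromodomain inhibitor AZD5153 at 150 nM, and whether osimertinib was kept on during the last days is not stated. There was no group given AZD5153 alone, and the total time in osimertinib may also have differed between the treated groups. In a bulk measurement, fewer cells carrying a mark and less of the mark in each cell cannot be told apart.

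ERK, the last kinase of the EGFR, RAS, RAF and MEK cascade, switches on genes whose products switch the cascade off again. DUSP6 removes phosphate from ERK in the cytoplasm, and DUSP4 and DUSP5 do so in the nucleus. Sprouty proteins hold back signalling between receptor tyrosine kinases and RAF, and SPRED proteins bring the RAS inactivator neurofibromin to the membrane. Because ERK induces them, transcripts of several of these genes are widely used as readouts of MAPK output in EGFR-driven lung cancer cells.

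RefSeq promoter windows of GRCh38.p14, running from 250 bases before to 50 after a start, were found for 6 of the 8 genes, with 10 windows in all. DUSP4 and DUSP5 had no entry. The 5 windows below are shown because counted regions cover them and because the regions over them moved in different ways. The region over the SPRY4 window and 1 of the 2 over the internal SPRED2 start fell in at least 1 comparison with DMSO. No region over the other 3 windows was called. All are written 5′ to 3′ on the strand of the gene, and capitals mark matches to the searched letters.
SPRY4, chr5:142324198-142324497, minus strand: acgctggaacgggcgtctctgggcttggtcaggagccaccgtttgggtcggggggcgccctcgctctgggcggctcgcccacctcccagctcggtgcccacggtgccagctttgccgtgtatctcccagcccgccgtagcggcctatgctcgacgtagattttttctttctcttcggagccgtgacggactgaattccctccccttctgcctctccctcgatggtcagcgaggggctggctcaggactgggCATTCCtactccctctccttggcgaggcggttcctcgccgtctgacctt
SPRED2 internal start, chr2:65366729-65367028, minus strand: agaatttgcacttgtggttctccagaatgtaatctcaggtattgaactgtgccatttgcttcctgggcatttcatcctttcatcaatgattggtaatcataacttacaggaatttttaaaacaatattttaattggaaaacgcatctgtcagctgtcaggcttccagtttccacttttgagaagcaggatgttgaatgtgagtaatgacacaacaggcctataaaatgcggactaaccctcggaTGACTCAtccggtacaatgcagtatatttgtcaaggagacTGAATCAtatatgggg
SPRED2 upstream start, chr2:65432550-65432849, minus strand: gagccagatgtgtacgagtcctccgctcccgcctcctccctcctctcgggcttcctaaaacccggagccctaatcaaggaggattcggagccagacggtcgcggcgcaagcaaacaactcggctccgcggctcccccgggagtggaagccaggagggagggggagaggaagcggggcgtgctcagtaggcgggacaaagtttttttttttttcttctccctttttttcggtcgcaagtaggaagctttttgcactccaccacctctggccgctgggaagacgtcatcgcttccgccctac
SPRY1, chr4:123398136-123398435, plus strand: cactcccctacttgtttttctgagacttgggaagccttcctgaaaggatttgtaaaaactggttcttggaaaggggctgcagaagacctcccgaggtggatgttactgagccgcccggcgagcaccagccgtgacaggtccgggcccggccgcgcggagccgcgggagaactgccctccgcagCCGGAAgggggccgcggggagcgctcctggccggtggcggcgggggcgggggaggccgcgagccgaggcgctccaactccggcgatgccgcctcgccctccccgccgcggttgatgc
SPRY2, chr13:80340059-80340358, minus strand: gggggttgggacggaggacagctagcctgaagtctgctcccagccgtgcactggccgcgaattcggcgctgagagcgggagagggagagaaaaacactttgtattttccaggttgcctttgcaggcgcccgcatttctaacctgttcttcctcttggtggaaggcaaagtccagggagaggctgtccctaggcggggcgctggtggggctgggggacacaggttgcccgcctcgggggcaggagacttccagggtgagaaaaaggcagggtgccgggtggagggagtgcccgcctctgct

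Both strands were searched for CCGGAA (the ETS core), TGANTCA (the AP-1 site), TGACGTCA (the CRE) and GGAATG (the TEAD site). The SPRY4 window had 1 TEAD match, read from the other strand, and none of the other letters. The internal SPRED2 window had 2 AP-1 matches, the SPRY1 window had 1 ETS match, and the upstream SPRED2 window and the SPRY2 window had no match. Among all 35116 promoter windows, 17.2% held the ETS letters, 7.71% the AP-1 letters, 1.85% the CRE and 14% the TEAD letters. CpG content also differed: the internal SPRED2 window held 4 CpG dinucleotides and 39.3% G and C, whereas the SPRY1 window held 32 and 69.3%, the SPRY4 window 26 and 65.0%, the upstream SPRED2 window 23 and 60%, and the SPRY2 window 15 and 63.0%. The median window held 14. These are descriptions of letters and not of bound factors.

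Total counts ranged from 6263443 to 10463351 per H3K27ac library, the 8 genes held 3261 to 9634 of them, and no region of these genes exceeded 649 counts. In the input the median of the 72 regions was 12 counts and the highest was 25. Levels are given as CPM (counts scaled to a common library size by TMM), as mean ± SD over 3 libraries, and log2 fold changes as value ± SE from edgeR. Libraries of 1 group did not all look alike: promoter regions held 40.3% to 45.9% of annotated counts in 7 libraries, but 59.8% in osimertinib DTP replicate 2 and 66.7% in osimertinib DTP + AZD5153 replicate 3, which also had the lowest total. Results that rest on these libraries are given with and without them. Leaving both out was chosen after seeing the data, and it raised the number of calls over all regions and over all sums in every comparison. All 8 epithelial markers looked for had an annotated promoter region, no leukocyte marker of 4 had one, and 1 of 3 endothelial markers had one. Of 4 fibroblast genes, 2 had promoter regions, whose summed level was 7.14 to 16.1 CPM in DMSO libraries, 22.8 to 61.0 in those of osimertinib DTP and 19.4 to 80.8 with AZD5153, and the part of this difference in the results below was not tested.

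Every region of the annotated table overlapped a peak in all 3 libraries of at least 1 group, a property read from the files that held for 100% of annotated regions. It was not enough for entry, since 5 regions near these genes had it and were not in the table. Among the 72 regions, 66 had a peak in every DMSO library, 33 in every osimertinib DTP library and 38 in every osimertinib DTP + AZD5153 library. The shares were 91.7%, 45.8% and 52.8%, against 75.8%, 75.9% and 55.6% of all annotated regions. The property was met through DMSO alone by 25 regions, 34.7% of the set, compared with 18.4% of all annotated regions. Such a region had to be high in DMSO, so counts of changed regions over the set are descriptions and are set beside the same count over all annotated regions.

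Against DMSO, osimertinib DTP cells carried less H3K27ac at many regions of these genes and more at none that passed the test. With edgeR at an adjusted p of 0.05, 20 of 72 regions fell (27.8%) and 0 rose, whereas 7.22% of annotated regions fell and 6.98% rose, and 5.13% and 5.58% of all tested regions did. At an unadjusted p under 0.05, 32 were lower and 3 higher, where 12.2% and 13.7% of all tested regions were. DESeq2 called 27 lower and 1 higher, and 9.76% and 7.91% of all tested regions. The median over all regions tested was 0.15 with TMM and 0.03 with the size factors of DESeq2. By class, 5 of 23 promoter regions fell (1.85% of all annotated promoter regions did), as did 2 of 9 flanks (7.36% of all flanks) and 13 of 40 distal regions (10.8% of all distal regions). Of the 20, 16 were among the 25 regions with a peak in all 3 libraries of DMSO alone, a kind of which 34.3% fell over all annotated regions. The remaining 4 were among the other 47, a kind of which 1.11% fell. Of the 5 called promoter regions, those of SPRY4 and DUSP6 were of the former kind and that of DUSP4 was not. The shares by class mix both kinds, and none was computed by class for either kind. The fold change was below 0 in 58 of 72 regions, with a median of -1.0 against 0.18 over annotated regions. In 39 regions every osimertinib DTP library lay below every DMSO library and in 3 above, compared with 22.7% and 21.2% of annotated regions.

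The falls were spread over 6 of the 8 genes: 5 regions of DUSP5, 5 of SPRED2, 4 of DUSP4, 3 of DUSP6, 2 of SPRY4 and 1 of SPRY1. No region of SPRY2 or SPRED1 was called. All 20 kept a negative fold change in every alternative and with each library left out, but the number called depended on single libraries. It was 1 without DMSO replicate 2, 4 without DMSO replicate 3, 13 without DMSO replicate 1, 6 without osimertinib DTP replicate 1, 6 without its replicate 2, 2 without its replicate 3 and 35 without osimertinib DTP + AZD5153 replicate 3. With both promoter-rich libraries left out together, 38 regions fell and 3 rose, where 12% and 14.9% of all tested regions did.

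**Figure D1:**
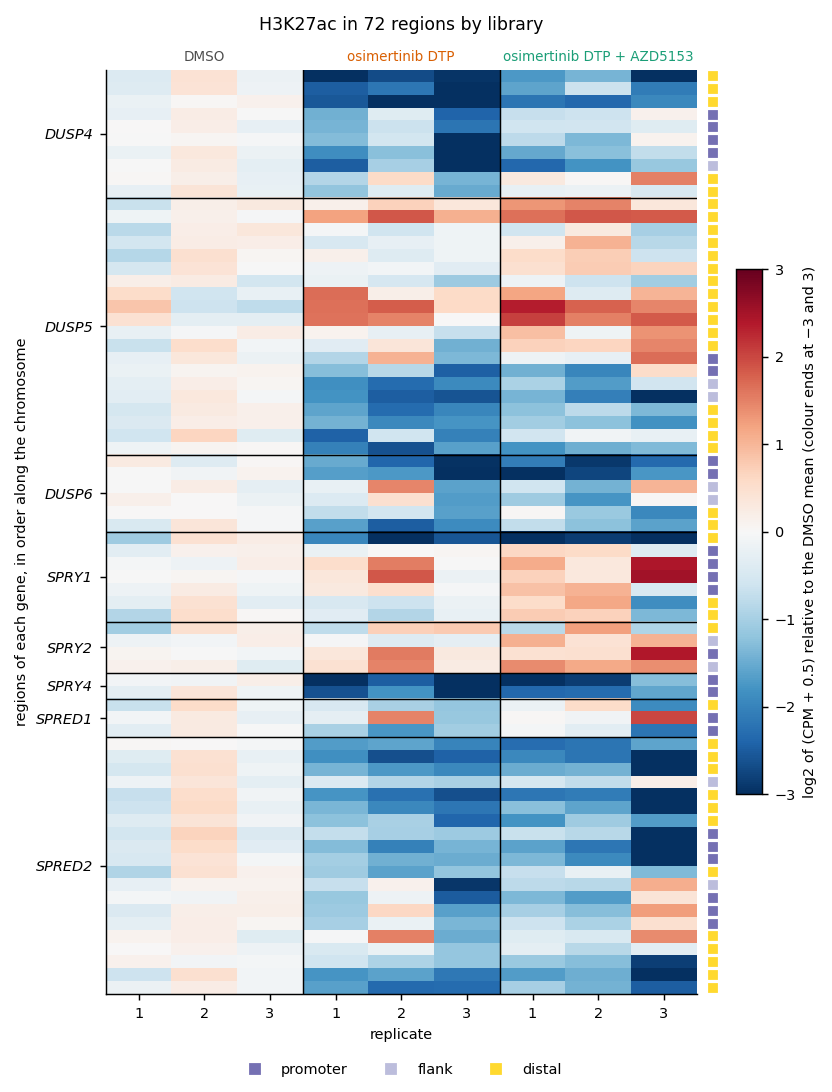
Each row is 1 of the 72 regions, ordered along the chromosome within its gene, and each column is 1 library, numbered by replicate within its group. Colour gives the log2 of CPM + 0.5 relative to the DMSO mean, and squares at the right give the class. Most rows are blue in both treated groups, while upstream regions of DUSP5 and several rows of SPRY1 and SPRY2 are red.

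Counts were also summed over the promoter regions and over the distal regions of each gene, which gave 15 sums, since SPRY4 has no distal region. In osimertinib DTP, 4 of the 15 fell and 0 rose: the SPRY4 promoter, the DUSP6 promoter, the distal regions of DUSP4 and the distal regions of SPRED2. Over all 20438 sums tested, 4.54% fell and 5.02% rose. Every region in the SPRY4 and DUSP6 promoter sums had a peak in all 3 libraries of DMSO alone. These 2 sums therefore had to be high in DMSO, and no share over sums of that kind was computed. The distal sums of DUSP4 and SPRED2 held some regions of this kind and some that were not. At an unadjusted p under 0.05, 6 were lower and 0 higher, where 9.36% and 11.6% of all sums were. DESeq2 called 6 lower and 0 higher, and 7.31% and 6.34% of all sums. The median log2 fold change was -0.76 over the 8 promoter sums, against 0.38 over all promoter sums, and -1.13 over the 7 distal sums, against 0.01. With both promoter-rich libraries left out, 9 of 15 sums fell and 0 rose, where 16.2% and 11.3% of all sums did and the median of all sums stood at -0.20 in place of 0.29.

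**Figure D2:**
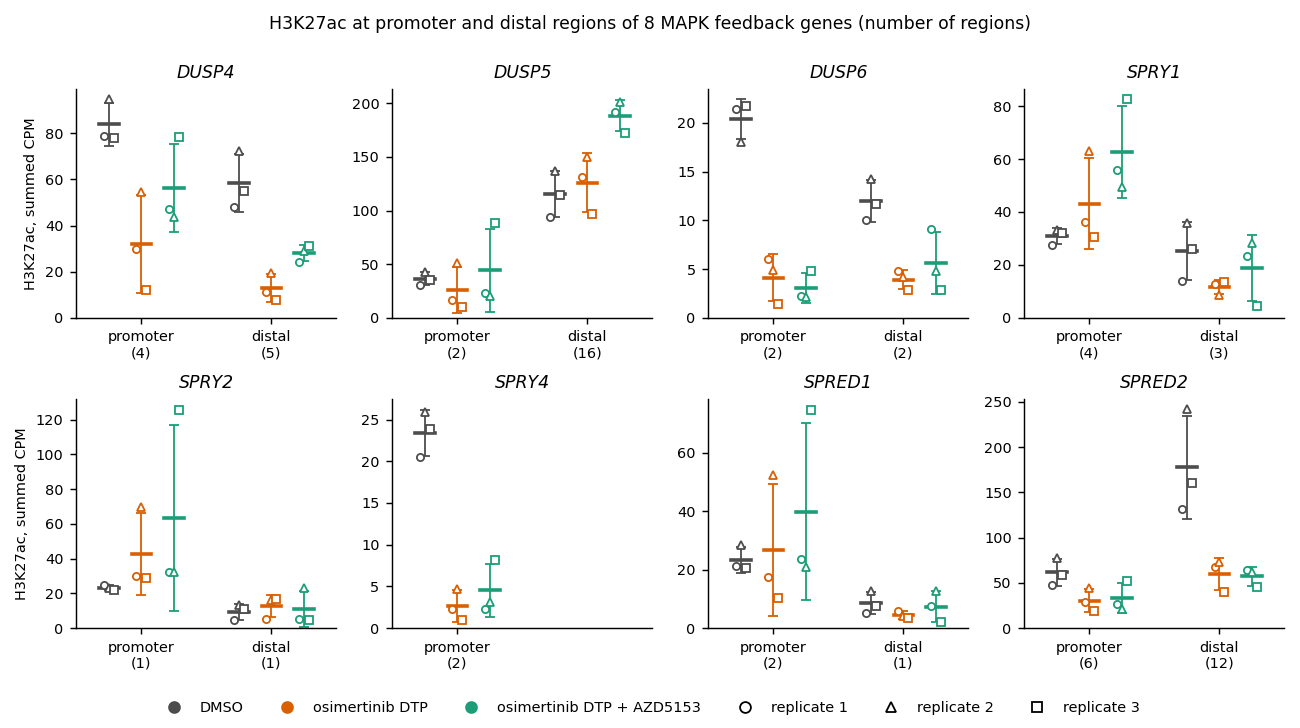
Summed CPM of the promoter regions and of the distal regions of each gene, with the number of regions in parentheses. Symbols are libraries by replicate, thick lines group means and bars the SD over 3 libraries. The SPRY4 promoter lies at 20.5 to 25.9 CPM in DMSO and at most at 4.73 CPM in osimertinib DTP, and osimertinib DTP + AZD5153 replicate 3 is the highest of its group at the promoters of DUSP5, SPRY2 and SPRED1.

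DUSP6, the cytoplasmic ERK phosphatase, lost acetylation at the 2 regions classed as its promoter. Both lie inside the RefSeq bounds of the gene, and no counted region overlapped its RefSeq promoter window. Both also had a peak in all 3 libraries of DMSO alone, so they had to be high in DMSO. The sum of its 2 promoter regions was 21.4, 18.1 and 21.7 CPM in DMSO, 6.02, 4.87 and 1.41 in osimertinib DTP libraries and 2.2, 2.09 and 4.83 with AZD5153. Every treated library lay below every DMSO library, and the treated groups overlapped. The log2 fold change was -2.31 ± 0.62 in osimertinib DTP (adjusted p = 0.0240, edgeR) and -2.76 ± 0.64 with AZD5153 (adjusted p = 0.00685).

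The larger of the 2, chr12:89351720-89352221 at 138 bp before a start inside the gene, went from 15.4 ± 1.12 to 3.37 ± 1.88 CPM. Its fold change was -2.19 (adjusted p = 0.0317, edgeR). The flanks of the same gene were not called. The region at 1076 bp before the RefSeq start of the gene was picked out after its values were seen. It stood at 19.0, 22.7 and 16 CPM in DMSO and at 16.4, 54.3 and 6.04 in osimertinib DTP. The groups overlapped and the fold change was 0.41 ± 0.72 (adjusted p = 0.792, edgeR). Counting the flanks as promoter ended the promoter call in osimertinib DTP (-0.39, adjusted p = 0.773) and with AZD5153 (-0.81, adjusted p = 0.443).

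The 2 distal regions of DUSP6 lay about 23 kb before the start, within an intron of another transcript. Both had a peak in all 3 libraries of DMSO alone, so they had to be high in DMSO. Their sum was 12 ± 2.11 CPM in DMSO, 3.92 ± 1.00 in osimertinib DTP and 5.6 ± 3.19 with AZD5153, and both fold changes missed the threshold (-1.61, adjusted p = 0.0914 and -1.08, adjusted p = 0.235, edgeR). The former passed without both promoter-rich libraries (-1.62, adjusted p = 0.00118), without osimertinib DTP + AZD5153 replicate 3 alone (0.0180), with only both groups fitted (0.0246), by DESeq2 (0.0168) and by voom (0.000439). The region chr12:89376098-89376599 fell on its own from 6.91 ± 2.10 to 1.42 ± 0.544 CPM (-2.26 ± 0.59, adjusted p = 0.0216). The replicate numbers were taken to pair osimertinib DTP with DMSO, but a block on these groups alone was not fitted. The number was fitted as a block over all 9 libraries, those with AZD5153 included. With it, the DUSP6 promoter sum had an adjusted p of 0.0744 and its larger region 0.0567 (edgeR). The promoter sum also missed the threshold without DMSO replicate 1 (0.0629), replicate 2 (0.0888) or replicate 3 (0.0860), and without osimertinib DTP replicate 2 (0.0603) or replicate 3 (0.109). With AZD5153 it passed with each library left out (0.000967 to 0.0298). The larger promoter region missed it without any 1 of the DMSO or osimertinib DTP libraries (0.0762 to 0.164), and the distal region without DMSO replicate 2 (0.135), DMSO replicate 3 (0.0860) or any 1 of the osimertinib DTP libraries (0.0593 to 0.0996).

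DUSP4, a nuclear phosphatase, had its lowest fold changes inside the gene. Its 5 distal regions, 3 in an intron and 2 about 22 kb before the start on chromosome 8, summed to 47.9, 72.3 and 55.1 CPM in DMSO, 11.3, 19.5 and 7.85 in osimertinib DTP libraries and 24.3, 29.0 and 31.1 with AZD5153. The 3 groups did not overlap, with osimertinib DTP lowest and DMSO highest. The sum fell in osimertinib DTP by 2.18 ± 0.51 on the log2 scale (adjusted p = 0.00999, edgeR). Neither the difference of AZD5153 from DMSO (-1.05 ± 0.49, adjusted p = 0.177) nor that from osimertinib DTP (1.13 ± 0.49, adjusted p = 1.00) passed.

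All 3 intronic regions were called. The one with the smallest p, at 6213 bp from the start, held 14.7, 17.6 and 18.8 CPM in DMSO and 2.49, 0.974 and 1.41 in osimertinib DTP (-3.36 ± 0.58, adjusted p = 0.00374, edgeR), and 3.31, 2.91 and 4.06 with AZD5153 (-2.31 ± 0.55, adjusted p = 0.00923). This was the only 1 of the 20 called regions left without DMSO replicate 2. The strongest distal region, at 6759 bp, fell from 16.6 ± 5.13 to 2.51 ± 0.866 CPM (-2.73 ± 0.61, adjusted p = 0.0105) and stood at 6.39 ± 3.64 with AZD5153, with its call lost without DMSO replicate 2 (0.0838), osimertinib DTP replicate 1 (0.0505) or its replicate 3 (0.0779). At both, all 3 DMSO libraries and 0 osimertinib DTP libraries had a peak. Those at 6759 and 7553 bp had a peak in all 3 libraries of DMSO alone, so they had to be high in DMSO. The regions 22 kb away were not called.

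At the DUSP4 promoter the 4 regions summed to 83.9 ± 9.49 CPM in DMSO, 32.1 ± 21.3 in osimertinib DTP and 56.4 ± 19.0 with AZD5153. Osimertinib DTP libraries (29.9, 54.4 and 12.1) lay below DMSO libraries (78.7, 94.8 and 78), but replicate 3 with AZD5153 (78.3) did not. Neither fold change of the sum passed (-1.39, adjusted p = 0.114 and -0.57, adjusted p = 0.512, edgeR). Of the 4 regions, only chr8:29351061-29351562 was called in osimertinib DTP (-2.04 ± 0.60, adjusted p = 0.0370). Its call was lost without DMSO replicate 2, and with AZD5153 it was not called (-1.22, adjusted p = 0.157). Without both promoter-rich libraries the promoter sum fell by 1.96 in osimertinib DTP (adjusted p = 4.97e-07), and it also passed without either alone (0.0407 and 0.0306). The distal call was lost without DMSO replicate 2 (0.0903) and without osimertinib DTP replicate 1 (0.0586) or replicate 3 (0.0634).

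DUSP5, the other nuclear phosphatase, was the only gene of the 8 with regions called in both directions. Its distal sum showed no change that passed in osimertinib DTP (93.9, 137 and 115 CPM in DMSO against 131, 150 and 96.7; 0.13 ± 0.36, adjusted p = 0.876, edgeR) and stood at 192, 201 and 173 with AZD5153, above all other libraries (0.71 ± 0.36 against DMSO, adjusted p = 0.223). Inside that sum were 12 regions upstream of the gene, 37.2 to 87.4 kb away, and 4 downstream, 9.66 to 28.8 kb away. This split was made after the values were seen and is not tested.

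The upstream regions summed to 80.2 ± 11 CPM in DMSO, 117 ± 25.7 in osimertinib DTP and 170 ± 13.3 with AZD5153. The downstream regions summed to 35.2 ± 10.6, 9.29 ± 1.84 and 18.5 ± 2.63 CPM. AZD5153 libraries were above every DMSO library upstream and below every DMSO library downstream. They were above every osimertinib DTP library on both sides. The downstream regions at 9.66, 10.3 and 28.8 kb had a peak in all 3 libraries of DMSO alone. Several upstream regions had a peak in all 3 libraries of a treated group but not of DMSO. Such regions had to be high in those groups, so these separations are descriptions, and no share over like sums was computed.

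The strongest upstream region, chr10:110410755-110411256, intergenic at 86651 bp from the nearest start, held 13.1, 15.8 and 13.9 CPM in DMSO, 33.7, 52.7 and 30.4 in osimertinib DTP libraries and 45.5, 53.5 and 52.6 with AZD5153. All treated libraries were above all DMSO libraries. The rise passed with AZD5153 (1.83 ± 0.48, adjusted p = 0.0157, edgeR) and missed the threshold in osimertinib DTP (1.45 ± 0.48, adjusted p = 0.0589), where it passed with osimertinib DTP + AZD5153 replicate 3 left out (0.00894) and by DESeq2 (0.0158). The call with AZD5153 was lost without DMSO replicate 1 (0.0785), replicate 2 (0.0792) or replicate 3 (0.0975).

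A pair of intronic regions about 41 kb upstream also rose with AZD5153, from 3.79 ± 2.85 to 15.6 ± 5.13 CPM (2.04 ± 0.63, adjusted p = 0.0317, edgeR) and from 5.65 ± 1.94 to 21.2 ± 4.05 (1.90 ± 0.58, adjusted p = 0.0300). The first of the pair had a peak in 1 DMSO library and in all 3 libraries of both treated groups. It therefore had to be high in the treated groups. The intergenic region and the pair were the only ones of the 72 called higher than DMSO. None of these 3 was called without DMSO replicate 2 or without DMSO replicate 3. Calls were also lost without DMSO replicate 1, at the intergenic region (adjusted p = 0.0785) and at the second of the pair (0.0594), and without osimertinib DTP + AZD5153 replicate 1, at both of the pair (0.111 and 0.0949). Downstream, chr10:110531585-110532086 at 28838 bp held 4.63, 5.37 and 5.23 CPM in DMSO and 0.860, 0.417 and 1.31 in osimertinib DTP. This region, with a peak in all 3 libraries of DMSO alone, had to be high in DMSO. It fell by 2.51 ± 0.61 (adjusted p = 0.0162), and its call was lost without DMSO replicate 2 (0.0922), DMSO replicate 3 (0.0776) or any 1 of the osimertinib DTP libraries (0.0523 to 0.0763).

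At the DUSP5 promoter the promoter-rich libraries were the highest of their groups. Its 2 regions summed to 30.9, 42.8 and 35.2 CPM in DMSO, 17, 50.8 and 10.1 in osimertinib DTP libraries and 23.5, 20.6 and 88.7 with AZD5153. The groups overlapped and neither fold change passed (-0.49, adjusted p = 0.726 and 0.28, adjusted p = 0.812, edgeR). The larger region, chr10:110497332-110497833, had means of 19.9 CPM in both DMSO and osimertinib DTP, where replicate 2 stood at 41.7 CPM and the others at 10.5 and 7.45. Without both promoter-rich libraries this region fell in osimertinib DTP by 1.11 (adjusted p = 0.0209, edgeR). Without both promoter-rich libraries the sum fell in osimertinib DTP by 1.39 (adjusted p = 0.000337), and its difference with AZD5153 changed sign to -0.64 (adjusted p = 0.103). The 2 flank regions, at 1316 and 1277 bp from a start, fell from 30.9 ± 6.26 CPM together to 6.22 ± 1.67 in osimertinib DTP, and each was called (-2.19, adjusted p = 0.0188 and -2.37, adjusted p = 0.0222). The region at 1277 bp had a peak in all 3 libraries of DMSO alone, so it had to be high in DMSO.

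**Figure D3:**
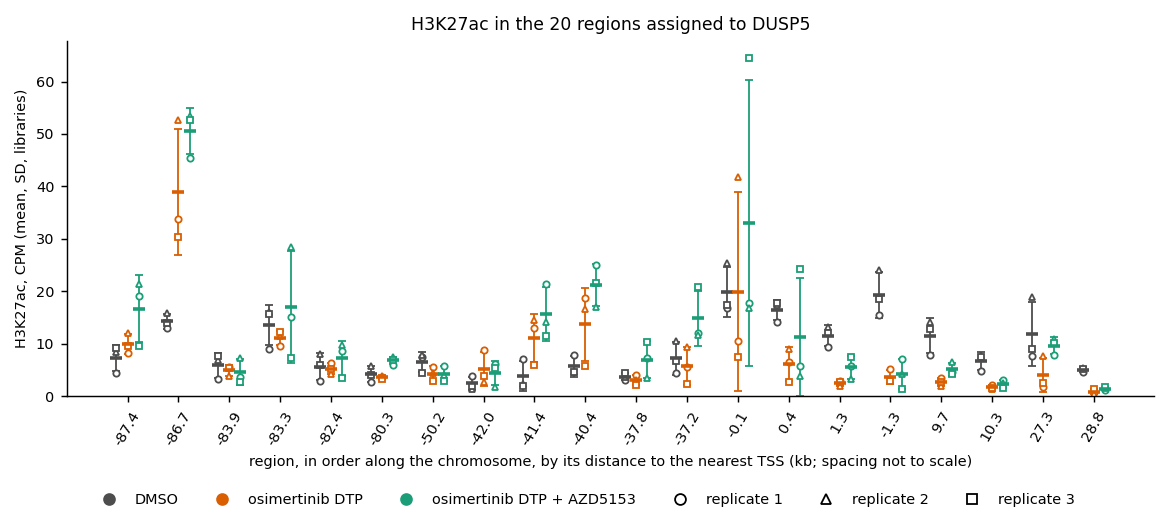
CPM in each of the 20 regions assigned to DUSP5, in order along the chromosome and named by their distance to the nearest TSS in kb. Symbols are libraries by replicate, short lines group means and bars the SD over 3 libraries. Treated groups stand above DMSO at 86.7, 41.4 and 40.4 kb upstream and below it at the flanks and downstream.

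SPRY4, an inhibitor of receptor tyrosine kinase signalling, had the lowest fold change of the 15 sums in osimertinib DTP, while with AZD5153 that of the DUSP6 promoter was lower. Its promoter held 20.5, 25.9 and 23.8 CPM in DMSO, 2.29, 4.73 and 0.906 in osimertinib DTP libraries and 2.30, 3.14 and 8.12 with AZD5153. No treated library reached the lowest DMSO library. In osimertinib DTP the mean was 0.113 of the DMSO mean, and the log2 fold change was -3.16 ± 0.68 (adjusted p = 0.00718, edgeR). With AZD5153 it was -2.39 ± 0.66 (adjusted p = 0.0206).

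Both SPRY4 regions were called in both comparisons with DMSO. Both had a peak in all 3 libraries of DMSO alone, so they had to be high in DMSO. The one that holds the whole printed window, chr5:142324021-142324522, went from 11.6 ± 1.32 to 1.05 ± 0.541 CPM in osimertinib DTP (-3.48 ± 0.75, adjusted p = 0.00947, edgeR). The other, chr5:142324588-142325089, went from 11.9 ± 3.03 to 1.60 ± 1.43 CPM (-2.91 ± 0.72, adjusted p = 0.0173). Peaks over them had fold enrichments of 8.41, 8.88 and 11.2 in the DMSO libraries, there was no peak in any osimertinib DTP library, and 1 AZD5153 library had a peak, with a fold enrichment of 3.72. Each region alone lost its call in osimertinib DTP without DMSO replicate 2 (0.0585 and 0.103), osimertinib DTP replicate 1 (0.0503 and 0.0745) or its replicate 3 (0.0693 and 0.0825), and the second also without DMSO replicate 3 (0.0596). With AZD5153 the first region lost its call without DMSO replicate 2 (0.0650), DMSO replicate 3 (0.0696) or osimertinib DTP + AZD5153 replicate 1 (0.0750), and with only both groups fitted (0.0548). The second lost it with loess offsets (0.0591), and without any 1 of the DMSO libraries (0.0598 to 0.128), osimertinib DTP replicate 1 (0.0516), or osimertinib DTP + AZD5153 replicate 1 (0.105) or replicate 2 (0.0622). The promoter call in osimertinib DTP held with each library left out in turn (adjusted p from 0.000387 to 0.0474), which was not so for the other 3 sums called in that comparison. With AZD5153 it was lost without DMSO replicate 2 (0.0833), without DMSO replicate 3 (0.0623) and without osimertinib DTP + AZD5153 replicate 1 (0.0783).

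SPRY1 and SPRY2, which encode further Sprouty proteins, had no promoter region called in either comparison with DMSO. The SPRY2 promoter, 1 region at chr13:80340154-80340655, held 24.6, 23.1 and 22.1 CPM in DMSO, 29.7, 69.7 and 28.5 in osimertinib DTP libraries and 32.3, 32.5 and 125 with AZD5153. Every treated library was above every DMSO library, yet the fold changes of 0.87 ± 0.58 (adjusted p = 0.444, edgeR) and 1.44 ± 0.58 (adjusted p = 0.117) did not pass. The highest value of each treated group came from its promoter-rich library, and without both the fold changes were 0.35 and 0.55. The SPRY2 distal region, 99088 bp away, stood at 9.48 ± 4.62, 12.6 ± 6.30 and 10.9 ± 10.3 CPM.

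At SPRY1 the 4 promoter regions summed to 27.5, 33.3 and 32.2 CPM in DMSO, 36.2, 62.9 and 30.4 in osimertinib DTP libraries and 55.9, 49.6 and 82.5 with AZD5153. The AZD5153 libraries were above all DMSO libraries, and the fold changes were 0.48 ± 0.46 (adjusted p = 0.619, edgeR) and 1.02 ± 0.47 (adjusted p = 0.172). With both promoter-rich libraries left out, the latter was 0.84 and passed (adjusted p = 0.0141). The strongest promoter region, chr4:123397895-123398396, overlaps the printed window and had 5.81 ± 0.824, 10.7 ± 6.23 and 18 ± 13.7 CPM.

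The SPRY1 locus held 1 called region, which had a peak in all 3 libraries of DMSO alone and so had to be high in DMSO. At 56281 bp upstream, the intergenic region chr4:123340013-123340514 held 5.17, 15.8 and 13.4 CPM in DMSO, 2.58, 0.696 and 1.51 in osimertinib DTP libraries and 1.00, 1.16 and 0.580 with AZD5153. It fell by 2.81 ± 0.64 (adjusted p = 0.0123, edgeR), and with AZD5153 the log2 fold change was -3.59 ± 0.68 (adjusted p = 0.00296), the lowest of the 72 regions in that comparison. Both regions 18 kb downstream overlapped between groups, so the distal sum of 25.3 ± 10.9, 11.6 ± 2.68 and 18.8 ± 12.5 CPM did not pass (-1.13, adjusted p = 0.332 and -0.42, adjusted p = 0.699). The call at 56281 bp in osimertinib DTP was lost without DMSO replicate 2 (0.0897) or replicate 3 (0.0619) and without osimertinib DTP replicate 2 (0.0721) or replicate 3 (0.0742).

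SPRED2, a membrane inhibitor of RAS signalling, carried the most distal H3K27ac of the set in DMSO. Its 12 distal regions summed to 132, 242 and 160 CPM in DMSO, 67.7, 72.5 and 39.6 in osimertinib DTP libraries and 64.4, 61.7 and 45.0 with AZD5153. All treated libraries lay below all DMSO libraries. Several of the 12 had a peak in all 3 libraries of DMSO alone, and those had to be high in DMSO. The sum fell by 1.57 ± 0.42 (adjusted p = 0.0236, edgeR) in osimertinib DTP and by 1.64 ± 0.42 (adjusted p = 0.0133) with AZD5153, and the difference between the treated groups was -0.07 ± 0.41.

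The highest of the 12 were an intronic pair. The region chr2:65319503-65320004 went from 33.9 ± 11 to 6.68 ± 2.13 CPM in osimertinib DTP (-2.34 ± 0.59, adjusted p = 0.0182, edgeR), and its neighbour chr2:65320162-65320663 went from 32.1 ± 11.6 to 9.75 ± 1.93 CPM and missed the threshold (-1.72 ± 0.66, adjusted p = 0.105). With AZD5153 both passed (-2.48, adjusted p = 0.00918 and -1.98, adjusted p = 0.0479). The call of the neighbour was lost with no filter (0.0527), with only both groups fitted (0.122), and without any 1 of the DMSO or osimertinib DTP libraries or osimertinib DTP + AZD5153 replicate 1 (0.0613 to 0.195). In osimertinib DTP the neighbour passed without both promoter-rich libraries (-1.66, adjusted p = 0.00105). The distal call in osimertinib DTP was lost without DMSO replicate 2 (0.230) or replicate 3 (0.0801) and without osimertinib DTP replicate 1 (0.0740) or replicate 3 (0.141). With AZD5153 it was lost without DMSO replicate 2 (0.130). The intronic region called in osimertinib DTP lost its call without DMSO replicate 2 (0.128) or replicate 3 (0.0673) and without osimertinib DTP replicate 2 (0.0753) or replicate 3 (0.0956), and with AZD5153 without DMSO replicate 2 (0.0630).

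The 6 promoter regions of SPRED2 belong to separate starts. Together they stood at 61.4 ± 14.9, 30.2 ± 12.9 and 33.1 ± 16.9 CPM, with fold changes of -1.03 (adjusted p = 0.268, edgeR) and -0.89 (adjusted p = 0.287) that passed without both promoter-rich libraries (-1.37 and -1.31, adjusted p = 0.000182 and 0.000244). Over the internal start, with few CpG in its window, chr2:65366861-65367362 held 8.52, 17.5 and 9.25 CPM in DMSO, 4.49, 2.5 and 4.13 in osimertinib DTP libraries and 3.51, 2.21 and 0.580 with AZD5153. Of the comparisons with DMSO, it passed only in that of AZD5153 after osimertinib (-2.43 ± 0.64, adjusted p = 0.0153, edgeR). It had a peak in all 3 libraries of DMSO alone. The other region over that start, chr2:65366234-65366735, was called neither in osimertinib DTP nor with AZD5153 (adjusted p = 0.484 and 0.267). At the upstream start, chr2:65432093-65432594 held 7.07, 11 and 11.2 CPM in DMSO, 4.30, 15.2 and 2.82 in osimertinib DTP libraries and 4.61, 3.72 and 24.0 with AZD5153. The promoter-rich libraries were the highest of their groups there, and osimertinib DTP + AZD5153 replicate 3 was the lowest of all 9 over the internal start.

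SPRED1 had 3 regions and no call. Its 2 promoter regions summed to 21.1, 28.4 and 20.5 CPM in DMSO, 17.4, 52.3 and 10.3 in osimertinib DTP libraries and 23.6, 20.9 and 74.6 with AZD5153. The groups overlapped, and the sign in osimertinib DTP was not stable: 0.19 ± 0.63 (adjusted p = 0.897, edgeR) with all libraries and -0.72 (adjusted p = 0.0915) without both promoter-rich ones. The distal region, 34833 bp upstream, stood at 8.47 ± 3.78, 4.50 ± 1.27 and 7.30 ± 5.32 CPM.

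**Figure D4:**
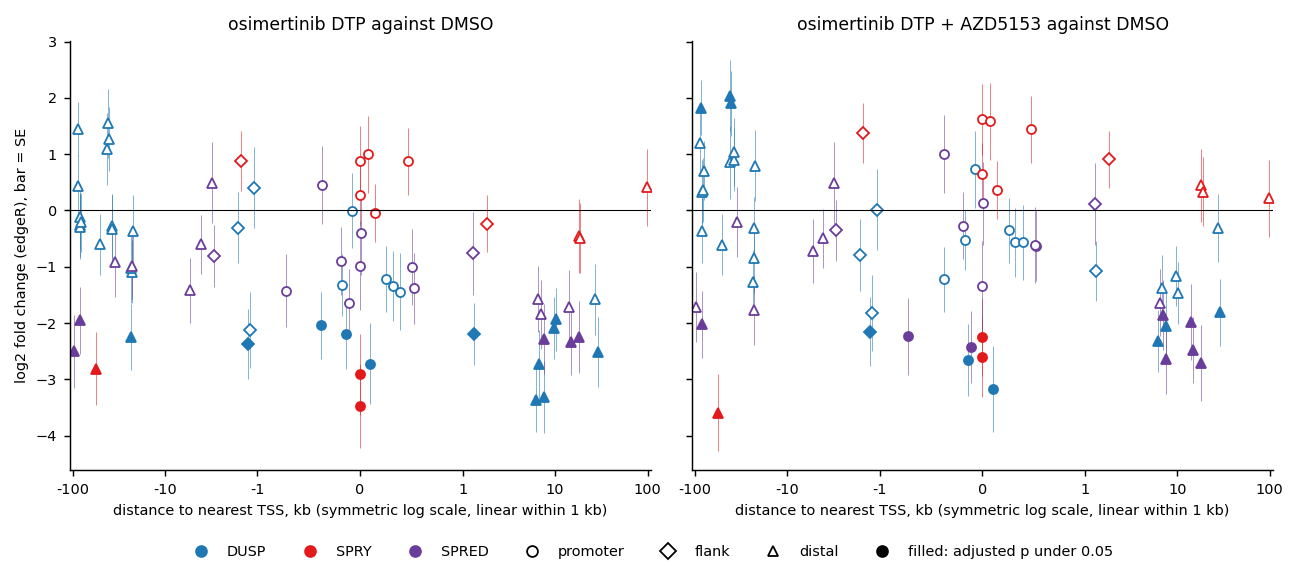
Log2 fold change against DMSO of each of the 72 regions by its distance to the nearest TSS (kb, symmetric log scale), for both treated groups. Colour gives the family, shape the class, bars the SE, and filled symbols an adjusted p under 0.05. In osimertinib DTP all 20 filled symbols lie below 0, and with AZD5153 17 lie below and 3 above, the latter all distal regions of DUSP5.

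Against DMSO, osimertinib DTP + AZD5153 cells had lower H3K27ac at regions of DUSP4, DUSP5, DUSP6, SPRY1, SPRY4 and SPRED2, and higher H3K27ac upstream of DUSP5. With edgeR, 17 of 72 regions fell (23.6%) and 3 rose (4.17%), where 11.1% of annotated regions fell and 10.7% rose, and 9.01% and 9.05% of all tested regions did. The falls were 8 regions of SPRED2, 2 each of DUSP4, DUSP5, DUSP6 and SPRY4, and 1 of SPRY1. By class, 6 of 23 promoter regions fell (3.18% of all annotated promoter regions), 1 of 9 flanks (12.7%) and 10 of 40 distal regions (16.1%). All 6 of these promoter regions had a peak in all 3 libraries of DMSO alone, whereas the shares by class mix both kinds of region. In 30 regions every AZD5153 library lay below every DMSO library and in 11 above, compared with 21.1% and 18.6% of annotated regions. Of the sums, 3 of 15 fell and 0 rose, where 6.46% and 7.78% of all sums did. With both promoter-rich libraries left out, 6 sums fell and 2 rose, the distal sum of DUSP5 (0.85, adjusted p = 0.0116) and the promoter sum of SPRY1, against 15.4% and 22% of all sums. Both comparisons use the DMSO libraries, and 13 regions were called in both, with 7 called in each comparison alone. The number of regions called was 14 without DMSO replicate 1, 4 without DMSO replicate 2, 7 without DMSO replicate 3, 9 without osimertinib DTP + AZD5153 replicate 1 and 31 without its replicate 3. Without both promoter-rich libraries, 29 regions fell and 7 rose, where 19.8% and 22.8% of all tested regions did.

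AZD5153 after osimertinib was then compared with osimertinib alone. Osimertinib may have been stopped for the last 3 days, so effects of AZD5153 and of osimertinib withdrawal cannot be told apart. No region of the 72 and none of the 15 sums passed edgeR, as was the case for 0% of all regions. At an unadjusted p under 0.05, 3 regions and 1 sum were higher with AZD5153 and 0 lower, and DESeq2 called 0 of the 72 and, over all regions, 21 higher and 73 lower. The fold change was above 0 in 51 regions, with a median of 0.57 against 0.07 over annotated regions. In 10 regions every AZD5153 library lay above every osimertinib DTP library and in 0 below, compared with 3.78% and 5.45% of annotated regions.

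By gene, the fold change was above 0 in all 10 regions of DUSP4, 17 of 20 of DUSP5, 6 of 7 of SPRY1, 3 of 4 of SPRY2, 2 of 2 of SPRY4 and 3 of 3 of SPRED1, and in 2 of 6 of DUSP6 and 8 of 20 of SPRED2. With both promoter-rich libraries left out, 2 regions and 2 sums rose. These were the DUSP4 distal sum (1.53 ± 0.34, adjusted p = 0.00317, edgeR), the DUSP4 promoter sum (1.15 ± 0.34, adjusted p = 0.0257), a DUSP4 intronic region (1.95, adjusted p = 0.0390) and the DUSP5 region 27344 bp downstream (2.17, adjusted p = 0.0316). In that fit 1.13% of all regions and 5.22% of all sums rose, and 0.982% and 1.27% fell. With all 9 libraries none of the 4 passed.

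The share of promoter and distal counts that lay in distal regions does not depend on library scaling. For the 8 genes it was 53.0%, 60.5% and 56.9% in the DMSO libraries, 58.9%, 44.4% and 61.7% in those of osimertinib DTP and 60.4%, 65.1% and 33.8% with AZD5153. The groups overlapped. Means were 56.8 ± 3.78%, 55.0 ± 9.27% and 53.1 ± 16.9%, with a two-sided exact permutation p of 0.9 for each pair, where 3 libraries against 3 cannot go below 0.1. Over all annotated regions the share was 51.7 ± 1.42%, 47.1 ± 9.89% and 46.3 ± 15.3%, and the same 2 libraries were lowest. The difference from DMSO changed sign without osimertinib DTP replicate 2 (3.52 percentage points in place of -1.77) and without osimertinib DTP + AZD5153 replicate 3 (5.98 in place of -3.67).

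**Figure D5:**
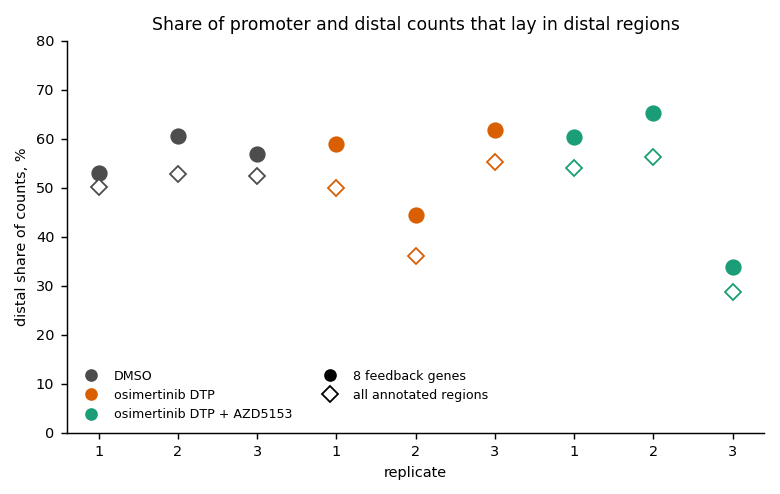
Distal share of promoter and distal counts (%) in each library, numbered by replicate, for the 8 feedback genes (filled circles) and for all annotated regions (open diamonds). The lowest values are 44.4% in osimertinib DTP replicate 2 and 33.8% in osimertinib DTP + AZD5153 replicate 3.

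Other genes of the pathway were read from 3 lists, as promoter and distal sums in osimertinib DTP against DMSO. Over all sums tested, 5.02% rose and 4.54% fell with edgeR. At an unadjusted p under 0.05, 11.6% of all sums were higher and 9.36% lower. Of 19 genes of the cascade itself, from EGFR to ERK, 18 promoter sums were tested and 0 passed edgeR in either direction, with 1 higher and 1 lower at an unadjusted p under 0.05 (median 0.45, against 0.38 over all promoter sums). Of 10 distal sums, 3 rose, among them SOS2 (2.26 ± 0.67), which encodes a RAS activator, and 1 fell, at the kinase gene BRAF, from 11.5 ± 5.82 to 1.04 ± 0.250 CPM (-3.46 ± 0.69, adjusted p = 0.00476, edgeR). Of 15 further DUSP, SPRY and SPRED genes, 10 promoter and 2 distal sums were tested and 0 passed edgeR. At an unadjusted p under 0.05, 2 promoter sums were higher and 1 lower, and the promoter median was 0.56.

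Of 15 other genes known as ERK outputs, 13 promoter and 9 distal sums were tested. At promoters 1 rose and 1 fell, with a median of -0.22. At distal regions 1 rose and 2 fell, with a median of -1.64 against 0.01 over all distal sums. Over all sums tested, 5.02% rose and 4.54% fell. How the calls of list genes stood with single libraries left out was not examined. The ETS factor gene ETV1 fell at its promoter from 37.7 ± 7.30 to 9.36 ± 2.06 CPM (-2.01 ± 0.50, adjusted p = 0.0155, edgeR). The EGFR ligand gene HBEGF rose at its promoter (1.79 ± 0.51, adjusted p = 0.0354) and distally (1.85 ± 0.49, adjusted p = 0.0230). PHLDA1 fell distally from 422 ± 125 to 122 ± 22.9 CPM (-1.79 ± 0.48, adjusted p = 0.0252), as did the AP-1 subunit gene FOSL1, from 27.6 ± 1.42 to 8.38 ± 2.57 CPM (-1.72 ± 0.52, adjusted p = 0.0441).

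Likeness in pattern was measured over the 9 libraries, on the log2 CPM of all regions of a gene less its own mean. The mean of the 8 genes was 0.43 in DMSO, -0.47 in osimertinib DTP and 0.05 with AZD5153. SPRY4 was farthest from that mean among the 8, with a root mean square difference of 1.03 log2 units, and SPRED1 was nearest, at 0.405. Of 7688 other symbols with at least 3 regions, the nearest were SHISAL1 (0.110), MTFP1 (0.134), EMP2 (0.135), RTEL1 (0.142) and HPCAL1 (0.142). The points share libraries and depth, and the measure is a description.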

How the data were processed

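H3K27ac ChIP-seq libraries of H1975 cells (3 groups of 3) and 1 pooled input were read from tables that the authors deposited. The deposited values used were raw read counts per region of hg38, from a table of 169637 regions and an annotated subset of 67387, and per library peak lists in which the authors give a fold enrichment ratio and a −log10 p from the peak caller. Per the submitters' notes, which give no roles, BWA 0.7.17, MACS2 2.2.6, featureCounts 2.0.0 and ChIPseeker 1.29.1 were used. Handling of duplicate reads and the peak threshold are not given in the sources used here. No column of per-sample values was left over. The deposited class and gene of each region were kept, so a distal region carries the nearest gene and not a proven target, and no threshold on −log10 p was added.

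Counts of all regions were fitted together in edgeR 4.0.16 (R 4.3.3) by the quasi-likelihood test, with TMM scaling, a minimum count of 10 in its low-count filter (157919 regions and all 72 of the set passed) and Benjamini-Hochberg adjustment over all regions tested, at 0.05. The input entered no test. Sums per gene and class used the same library sizes, over 20438 sums. A peak was assigned to a region from an overlap of 1 bp. Alternatives used DESeq2 1.42.0, limma 3.58.1 (voom with quality weights), loess offsets (span 0.3), no TMM, no filter, promoters within 3 kb, only both groups compared, a replicate block, and each library left out. Tables were joined in Python 3.11.15 with pandas 2.3.3 and numpy 2.4.6. The fit was tested on simulated data.

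Same-numbered libraries deviated together in osimertinib DTP and DMSO (correlations of 0.309, 0.325 and 0.294 across regions, all above the limit of 0.1). In the other comparisons not all were above it (0.217, 0.0524 and -0.211 for AZD5153 with osimertinib DTP, and -0.0194, 0.536 and 0.358 for AZD5153 with DMSO). By this rule the numbers were taken to pair osimertinib DTP with DMSO alone, though some correlations of AZD5153 with DMSO were higher. No replicate pair agreed within sampling noise (lowest chi-square per degree of freedom 4.54). The labels call the libraries biological replicates, and p-values measure the spread between libraries of 1 line.

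The 8 genes and the lists were chosen with earlier results of these data known. Named for each gene were both sums, the promoter region and distal region with the highest mean CPM, and the called region with the smallest p; up to 4 genes were named per list by smallest p, and the 4 motifs were searched in the RefSeq windows. Other regions, and FOSL1, were named after their values were seen. Some genes of the cascade list that passed are not reported here by name.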

Additional observations from a re-analysis of the deposited data

How the results depend on the processing

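In osimertinib DTP against DMSO, where 20 regions were called, the number was 28 by DESeq2, 21 without TMM, 23 with loess offsets, 19 without the filter, 3 at an adjusted p of 0.01, 43 (4 higher, 39 lower) by voom with quality weights, 34 (3 higher, 31 lower) with only both groups fitted and 41 (3 higher, 38 lower) without both promoter-rich libraries, a setting chosen after seeing the data. Each library left out in turn gave 1 to 35. With AZD5153 against DMSO the 20 calls became 6 at 0.01, 39 (8 and 31) by voom, 10 (2 and 8) with only both groups fitted and 36 (7 and 29) without both libraries, and 4 to 31 with 1 library left out. Between the treated groups the 0 calls became 2 by voom and 2 without both libraries, and stayed at 0 to 0 with 1 left out. Of the sums, 4 were called in osimertinib DTP, 2 at 0.01, 9 by voom, 9 without both libraries and 1 to 6 with 1 left out. Between treated groups 0 became 4 by voom and 2 without both libraries, with 0 to 0. With AZD5153 against DMSO, 3 became 1 at 0.01, 5 with loess offsets, 8 (2 and 6) by voom and 8 without both libraries, with 1 to 4. The cause of these differences was not tested.

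With the replicate number as a block over all 9 libraries, 19 regions and 3 sums were called in osimertinib DTP against DMSO. The lost sum was the DUSP6 promoter. In AZD5153 against DMSO, where the numbers were not taken to pair, the SPRY4 promoter had an adjusted p of 0.0629 under the block.

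The distal share differed by -5.12 to 3.52 percentage points between osimertinib DTP and DMSO with 1 library left out, by -7.91 to 7.75 between treated groups, and by -9.68 to 5.98 between AZD5153 and DMSO.

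No value passed in a fit in which its sign turned. For AZD5153 against DMSO, the DUSP5 promoter sum was -0.32 with promoters within 3 kb, -0.12 with loess offsets, -0.59 by voom and -0.64 without both promoter-rich libraries (-0.72 to 0.60 with 1 left out), the larger DUSP5 promoter region -0.12 without both (-0.21 to 1.02), the SPRED1 distal region 0.29 by voom and 0.32 without both (-0.83 to 0.23), and the SPRY1 distal sum 0.13 and 0.12 (-0.83 to 0.030). For osimertinib DTP against DMSO, the SPRED1 promoter sum was -0.031 without TMM, -0.21 with loess offsets, -0.40 by voom and -0.72 without both (-0.70 to 0.67), its larger region -0.28 and -0.62 (-0.60 to 0.96), the SPRY2 distal region -0.32 by voom, and the larger DUSP5 promoter region 0.083 without the filter and 0.037 with only both groups (-1.09 to 0.49). Between treated groups the SPRED2 distal sum was 0.062 by DESeq2, 0.023 by voom and 0.28 without both (-0.35 to 0.071), the SPRED2 promoter sum -0.12 by voom (-0.36 to 0.47), and the SPRY2 distal region 0.45 and 0.43 (-1.34 to 0.15). With 1 library left out signs also turned at the DUSP5 distal sum in osimertinib DTP (-0.0072 to 0.37), at the SPRED1 promoter (-0.073 to 1.04) and its larger region (-0.036 to 1.32) and the SPRY2 distal region (-0.92 to 0.56) for AZD5153 against DMSO, and between treated groups at the promoters of DUSP5 (-0.23 to 1.67), SPRED1 (-0.26 to 1.48) and SPRY2 (-0.40 to 1.08) and distally at DUSP6 (-0.029 to 0.82).

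Counting each pair of a single sum or region and a setting once, 584 pairs kept direction and side of the threshold, 57 gained a call, 12 lost one and 24 changed sign; with 1 library left out the counts were 596, 9, 78 and 28. The precision of each value is limited by 3 libraries a group and at most 649 counts a region.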

Other observations

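Within 10 kb of the 8 genes, 30 further counted regions had no entry in the annotated table, and none exceeded 71 counts in a library. Of the 29 tested, 26 had a log2 fold change below 0 in osimertinib DTP against DMSO, and with edgeR 6 fell and 0 rose: 3 at DUSP4, 2 at SPRED2 and 1 at SPRY4. Over all tested regions 5.13% fell and 5.58% rose. Against DMSO, 8 fell and 1 rose with AZD5153, the latter at SPRED1, where 9.01% and 9.05% of all tested regions did. Of the 30, 4 had a peak in all 3 DMSO libraries, 1 in all 3 libraries with AZD5153 and 0 in all 3 osimertinib DTP libraries. Of the 6 that fell in osimertinib DTP, 2 were among these 5 and 4 were not.

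Next to the SPRY4 promoter, the deposited annotation gives 2 regions to SPRY4-AS1, an antisense transcript. The region chr5:142325137-142325638 held 166, 254 and 180 counts in DMSO, 16, 26 and 7 counts in osimertinib DTP and 10, 9 and 21 with AZD5153. At chr5:142327861-142328362 the counts were 39, 47 and 41, then 5, 2 and 4, and then 2, 2 and 6. Every treated library lay below every DMSO library at both, and both lie outside the sums given for SPRY4.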
